A study of Sus scrofa with 5 samples.

Results

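The transcripts described here are 6 of the 45614 in the deposited table. They are a transcript of each of the genes GGPS1, TLCD2 and DTX3, and a transcript next to each gene. The study classed the latter as long intergenic noncoding RNAs (lincRNAs). All 6 were chosen by their measured values. They form 3 of 12 pairs listed by the study because the lincRNA level ran opposite to that of a neighbouring gene over the stages. Their opposite course is therefore a description of how the pairs were picked, and nothing is supported with it. The study followed additional molars, the permanent molars that form without a predecessor. For lincRNAs negatively correlated with a neighbouring gene, the paper proposes a possible regulatory role in cis, on genes close by.

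The material was the additional molar germ with its attached dental lamina, dissected from the mandible of wild type miniature pig embryos at embryonic day 50 (E50), 60 (E60) and 70 (E70), with no treatment. RNA was pooled within a stage. The sample labels list 1 sample at E50, 1 at E60 and 3 at E70, but the table gives a single value for E70, which was used as the authors' value. With 1 value per stage there is no spread between animals or pools, and no difference below has a replicate check. The tissue held several cell types, so more cells of a type and more RNA per cell cannot be told apart. Markers of dental epithelium and mesenchyme were not analysed here, because the table gives transcript identifiers without gene symbols.

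GGPS1 encodes geranylgeranyl diphosphate synthase, which makes an isoprenoid used in protein prenylation, the attachment of a lipid that anchors proteins in membranes. TLCD2 encodes a membrane protein with a TLC domain that has been linked to the composition and fluidity of membrane phospholipids. DTX3 belongs to the Deltex family of E3 ubiquitin ligases, a family first known from Notch signalling. LincRNAs are by definition transcribed from their own loci between protein-coding genes. Some act on genes close by, while for many no function is known. The name is used here as the study gave it. Each listed lincRNA shared its locus interval with other transcripts, and whether any of those is protein-coding was not determined.

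Levels are given as FPKM, fragments scaled to exon length and to the number of mapped fragments. The scaling is meant to let transcripts of different length be compared. Summed over all transcripts, the FPKM were 44747113 at E50, 3117182 at E60 and 88974346 at E70. Whether values of different transcripts are comparable at E50 and E70 was not tested. The GGPS1 transcript TCONS_00656670 (WZSP scaffold 37, 2071131 to 2090079) stood at 2.74 FPKM at E50, reached 32.6 at E60 and was back at 1.03 by E70. The lincRNA beside it, TCONS_00656338 (scaffold 37, 2090903 to 2249703), started from 396 FPKM at E50, dropped to 0.721 at E60 and returned to 537 by E70. The gene transcript was thus highest at E60, the stage at which the lincRNA was lowest. The gap between the loci was 823 bp.

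The TLCD2 transcript TCONS_00347602 (scaffold 211, 6218745 to 6223984) stood at 0.422 FPKM at E50, reached 8.98 at E60 and was at 0.169 by E70. Its lincRNA, TCONS_00348582 (scaffold 211, 6175886 to 6209823), started from 89.3 FPKM at E50, dropped to 0.975 at E60 and returned to 105 by E70. TLCD2 was the lowest of the 3 gene transcripts at every stage, and its lincRNA was the lowest of the 3 lincRNAs at E50 and E70 but the highest at E60. The loci were 8921 bp apart, the widest gap of the 3 pairs.

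The DTX3 transcript TCONS_00814785 (scaffold 471, 1013202 to 1018834) stood at 1.62 FPKM at E50, reached 56.4 at E60 and was at 0.486 by E70. Its lincRNA, TCONS_00814035 (scaffold 471, 1019203 to 1026117), started from 463 FPKM at E50, dropped to 0.847 at E60 and returned to 208 by E70. DTX3 had the highest FPKM of the 3 gene transcripts at E60, whereas GGPS1 had the highest at E50 and E70. A gap of 368 bp separated the DTX3 locus from its lincRNA.

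**Figure D1:**
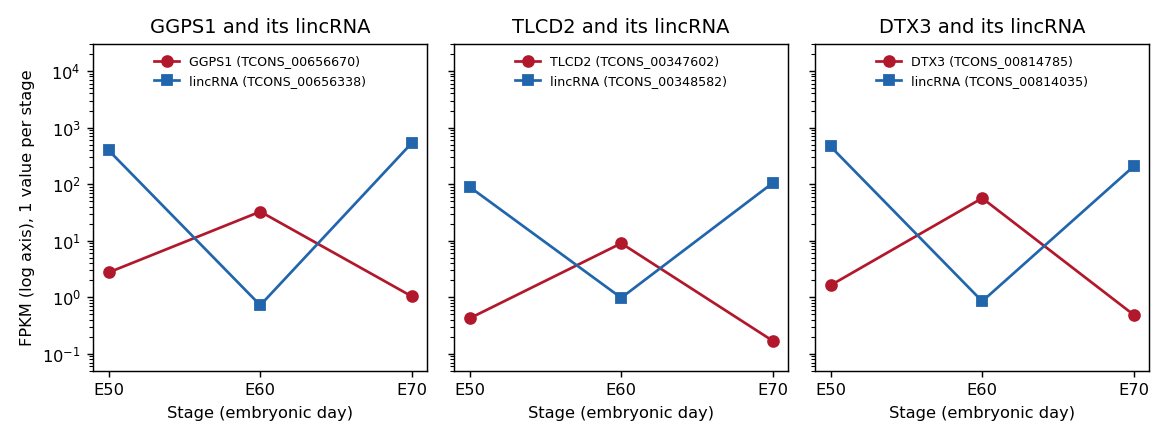
FPKM (log axis) of each gene transcript (circles) and its lincRNA (squares) at E50, E60 and E70, with 1 value per stage joined by lines. The gene transcripts peak at E60, at 8.98 to 56.4 FPKM, where the lincRNAs lie between 0.721 and 0.975 FPKM.

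The members of a pair exchanged places at E60. At E50 the lincRNA had 144 times the FPKM of GGPS1, 211 times that of TLCD2 and 285 times that of DTX3. At E60 the gene transcript was the higher one, by 45.2 times for GGPS1, 9.21 times for TLCD2 and 66.6 times for DTX3. At E70 the lincRNA was again the higher one, by 521, 625 and 427 times for GGPS1, TLCD2 and DTX3. These ratios do not depend on a factor applied to a whole stage, but they do change under quantile normalization. Places among transcripts were taken over those above 0 at the stage, which numbered 20727 at E50, 37539 at E60 and 19392 at E70, so the set differs between stages. The lincRNA beside GGPS1 lay above 91.8% of these at E50, above 13.7% at E60 and above 89.1% at E70. For that beside TLCD2 the shares were 84.4%, 17.0% and 81.0%, and for that beside DTX3 they were 92.4%, 15.3% and 84.8%. All 3 thus went from the higher transcripts to the lower ones and back. GGPS1 lay above 58.5%, 84.8% and 42.3% of the transcripts above 0, TLCD2 above 23.9%, 62.9% and 15.7%, and DTX3 above 50.0%, 90.4% and 30.5%. Each gene transcript was placed highest at E60, and DTX3 moved most among them. Over all 45614 transcripts, those listed at 0 included, all 3 moved less: the shares were 81.1%, 87.5% and 75.5% for GGPS1, 65.4%, 69.5% and 64.2% for TLCD2, and 77.3%, 92.1% and 70.5% for DTX3.

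Changes between stages were computed on log2(FPKM + 1), on which low transcripts appear to change less than they do, and 2-fold or more on that scale was taken as a change. From E50 to E60, GGPS1 rose by 3.17, TLCD2 by 2.81 and DTX3 by 4.45 on the log2 scale, so 3 of 3 gene transcripts rose, as did 56% of all transcripts. From E60 to E70 GGPS1 fell by 4.05, TLCD2 fell by 3.09 and DTX3 fell by 5.27, where 56.1% of all transcripts fell. A rise followed by a fall, the course the genes were chosen for, was seen in 51.3% of transcripts in the deposited values, in 34.3% with the stages scaled to the same median over the 11301 transcripts above 0 at all 3 of them, and in 25.7% after quantile normalization. The stages also differed in composition. At E60, 37539 transcripts were above 0, against 20727 at E50 and 19392 at E70. The 10 highest transcripts held 35.3% of the summed FPKM at E60, 57.5% at E50 and 72.2% at E70. The part of these differences in the members' changes was not tested. Over all transcripts the median change was 1.38 into E60 and -1.38 out of it. Relative to these medians, GGPS1 changed by 1.79 and -2.67, TLCD2 by 1.43 and -1.71, and DTX3 by 3.08 and -3.89. When the stages were given the same quantiles, which brought the medians of all transcripts to 0.06 and -0.07, TLCD2 no longer passed 2-fold in either step, with changes of 0.27 and -0.35. GGPS1 kept changes of 1.36 and -1.98 and DTX3 of 3.53 and -4.10 under this quantile normalization.

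From E50 to E60 the lincRNA beside GGPS1 fell by 7.85 on the log2 scale, that beside TLCD2 fell by 5.51 and that beside DTX3 fell by 7.97. A fall of 2-fold or more was seen in 14.1% of all transcripts, and in 27.0% after quantile normalization. From E60 to E70 the same lincRNAs rose by 8.29, 5.75 and 6.82, and 14.3% of all transcripts rose. The course of a fall and then a rise, for which the lincRNAs were chosen, was found in 10.4% of transcripts, and in 17.6% after quantile normalization. Relative to the median of all transcripts, the lincRNA beside GGPS1 changed by -9.22 and 9.67, that beside TLCD2 by -6.89 and 7.13, and that beside DTX3 by -9.35 and 8.20. Both steps use the same E60 value. The balance of rises and falls in the table depended on the scaling: of the transcripts that changed from E50 to E60, 79.9% were higher at E60 in the deposited values, 68.7% with the stages scaled to the same median in that way and 53.3% after quantile normalization. Of those that changed from E60 to E70, the shares higher at E70 were 20.3%, 32.8% and 45.3%. After the median scaling, the median change of all transcripts was still 0.54 and then -0.54. GGPS1 then changed by 1.48 and -2.25, TLCD2 by 1.48 and -1.78, and DTX3 by 2.79 and -3.60. With equal sums without the 100 highest transcripts, the median change of all transcripts went the other way, to 2.63 and -2.72. The rises to E60 were then 4.92 for GGPS1, 4.32 for TLCD2 and 6.17 for DTX3. None of the 3 lincRNAs changed direction in these steps under these 3 scalings.

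**Figure D2:**
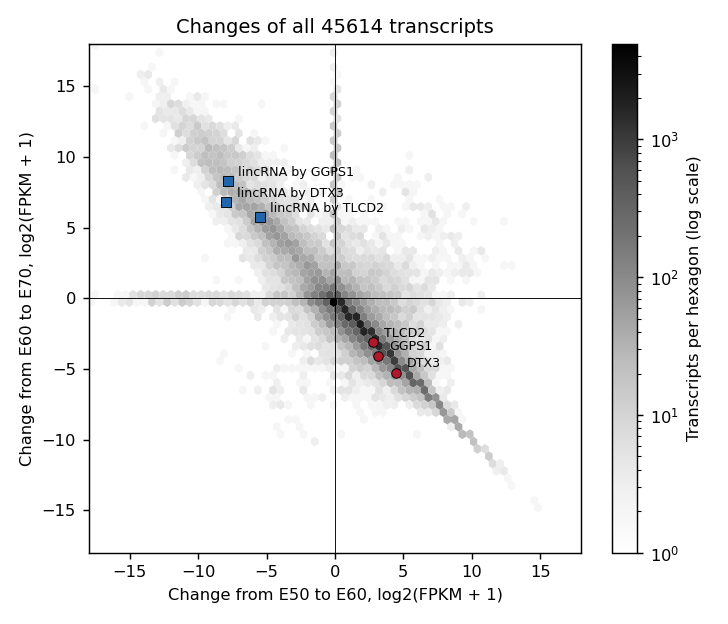
Change in log2(FPKM + 1) from E50 to E60 (horizontal) and from E60 to E70 (vertical) for all 45614 transcripts, with darker hexagons holding more transcripts on a log scale. The 3 gene transcripts (circles) lie in the dense arm of transcripts that rose and then fell, and the 3 lincRNAs (squares) lie in the sparser arm of transcripts that fell and then rose. Both axes use the E60 value.

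Among the 450 lincRNAs of the study, all of them listed because they changed between stages, the median change was -4.37 into E60 and 4.61 out of it. Only 35 of the 450 fell more to E60 than the lincRNA beside GGPS1, and 27 rose more to E70. For the lincRNA beside DTX3 these counts were 31 and 69, and for that beside TLCD2 they were 142 and 136. These ranks use the changes by which the 3 lincRNAs were chosen, in a list that also holds lincRNAs that rose to E60, and are given as a description. Their levels at E50 were less extreme: 109 of the 450 had a higher FPKM at E50 than the lincRNA beside GGPS1, 200 than that beside TLCD2 and 104 than that beside DTX3.

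The comparison of E50 with E70 leaves out the E60 value. GGPS1 had 2.66 times, TLCD2 2.51 times and DTX3 3.34 times as much FPKM at E50 as at E70, but on log2(FPKM + 1) the changes to E70 were -0.88, -0.28 and -0.82, all short of 2-fold. The lincRNA beside GGPS1 changed by 0.44 and that beside TLCD2 by 0.24, and only the lincRNA beside DTX3 passed 2-fold, with a change of -1.15. Thus 1 of the 6 transcripts was lower at E70, as were 10.7% of all transcripts, and 0 were higher, against 11.8% of all transcripts. Over all transcripts the balance turned with 0.1 added to the FPKM (21.5% lower and 17.7% higher) and after quantile normalization (19.1% lower and 15.6% higher). The median change of the 14166 transcripts above 0 at both stages was -0.0012. The change of the lincRNA beside DTX3 ranged over the alternatives from -2.05 after quantile normalization, and -1.90 with equal sums without the 100 highest transcripts, to -0.80 with median scaling and -0.78 with its locus summed, the last 2 short of 2-fold. DTX3 passed 2-fold with its locus summed (-1.25) or with 0.1 in place of 1 added to the FPKM (-1.56). The direction of the other lincRNAs depended on the scaling: that beside GGPS1 had -0.66 and that beside TLCD2 -0.52 after quantile normalization, and -0.31 and -0.51 with equal sums without the 100 highest transcripts. Summed over their loci, the changes were 1.35 and -1.11. GGPS1 passed 2-fold with 0.1 added (-1.33) and with the stages scaled to the same sum without the 100 highest transcripts (-1.08).

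The table holds no read counts, but low values show steps. Of 608 transcripts that were alone at their locus and had an FPKM above 0 and under 1 at both E50 and E70, 66.9% had a ratio of E50 to E70 that was within 1% of the most frequent ratio, 2.50, times a ratio of whole numbers up to 6. Such windows cover 12.3% of the log range they span. The most frequent ratio was itself taken from these transcripts, and 75 of them lay within 1% of it. Of the other 533, 62.3% lay at the other steps, which cover 11.8% of the remaining range. The ratio of TLCD2 was within 0.138% of the most frequent ratio, and that of DTX3 was 1.33 times it, within 0.0637% of the step of 4 to 3. That of GGPS1 was 1.06 times it, 6.18% from the nearest of these steps. None of the 3 gene transcripts belongs to the set that showed the steps, since each shares its locus with another transcript and GGPS1 and DTX3 were above 1 FPKM at E50, so their ratios are set beside the steps as values only. Which ratio stands for equal numbers of fragments, and the number of fragments itself, could not be read from these values.

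Other transcripts with the same locus interval as a member were taken as its isoforms, among which the fragments of a locus are divided by estimation. At the GGPS1 locus the only other transcript, TCONS_00655317, was listed at 0 at all 3 stages, so the member held 100% of the locus FPKM. At the TLCD2 locus TCONS_00350320 was listed at 0 at E50, had 4.73 FPKM at E60 and 2.47e-06 at E70. The member TLCD2 transcript held 65.5% of the locus FPKM at E60, where both transcripts peaked. At the DTX3 locus TCONS_00814784 had 0.552 FPKM at E50 and 5.94 at E60, was listed at 0 at E70, and so followed the member. TCONS_00812843 had 0.355 FPKM at E50 and was listed at 0 at E60 and E70. The DTX3 member held 64.1% of the locus at E50, 90.5% at E60 and all of it (100%) at E70. Summed over the locus, TLCD2 had 0.422, 13.7 and 0.169 FPKM at the successive stages, and DTX3 had 2.53, 62.3 and 0.486. The sum of each gene locus was highest at E60, as was that of 57.1% of all 18696 loci. The members, chosen for that peak, held 65.5% to 100% of these sums at E60. The sums therefore largely restate the chosen values and support nothing further.

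The lincRNA loci were more mixed. They held 18 transcripts, the 3 members, chosen for a fall and then a rise, and 15 others. Of the others, 6 fell and then rose (10.4% of all transcripts did), 8 rose and then fell (51.3% of all transcripts) and 1 did neither. All transcripts are an unlike set for this, since these loci were picked for a transcript that fell and then rose. Shares among the other transcripts of loci picked in that way were not computed, so no excess can be read from these counts. In the locus beside GGPS1, with 7 transcripts, the highest was not the listed lincRNA but TCONS_00656330, with 1191 FPKM at E50, 138 at E60 and as much as 4143 at E70. TCONS_00656339 also went down and up, with 269 FPKM, 0 and 55.7. The listed lincRNA held 21.3% of the locus at E50, 0.315% at E60 and 11.3% by E70. The other 4 transcripts took the course of the gene. The highest of them, TCONS_00656622, had 2.27 FPKM at E50, 78.1 at E60 and by E70 0.988, a course like that of GGPS1 itself. TCONS_00655304, TCONS_00656625 and TCONS_00656626 had 3.97, 5.45 and 2.42 FPKM at E60 and 0.145, 1.37 and 0.144 at E50. At E70 they had 1.06, 0.347 and 0.614 FPKM. Transcripts that rose and then fell made up 0.211% of this locus at E50, 39.3% at E60 and only 0.0634% at E70.

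The lincRNA locus beside TLCD2 also held 7 transcripts. TCONS_00348586 (147 FPKM at E50, 7.90 at E60, 106 at E70), TCONS_00348599 (35.6, 0 and 50.7) and TCONS_00351302 (135, 4.94 and 298) fell and then rose like the listed lincRNA. TCONS_00347601 (0, 11.6 and 0.0926) and TCONS_00350319 (6.87, 22.4 and 5.73) rose and then fell like TLCD2. TCONS_00349729 fell from 813 FPKM at E50 to 2.72 at E60 and was listed at 0 at E70, so it held 66.3% of the locus at E50 and no part of it at E70. The listed lincRNA held 7.28% of the locus at E50, 1.93% at E60 and 18.6% by E70, and its course was therefore that of a minor transcript at every stage. The transcripts that rose and then fell made up 67.3% of the locus at E60, against 0.560% at E50 and 1.03% at E70.

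At the locus beside DTX3, with 4 transcripts, the listed lincRNA was the main one, with 88.8% of the locus FPKM at E50 and 68.7% at E70 but 0.623% at E60. TCONS_00815704 went the same way, with 58.3 FPKM at E50, 1.56 at E60 and then 86.0 at E70. At E60 the locus was taken over by TCONS_00812844 (0 FPKM at E50, 78.7 at E60, 0 at E70) and TCONS_00814786 (0, 54.7 and 8.72). These transcripts made up 98.2% of the locus at E60. Summed, the transcripts other than the lincRNA rose from 58.3 FPKM at E50 to 135 at E60 at this locus. At the other lincRNA loci they fell, from 1465 to 228 FPKM beside GGPS1 and from 1137 to 49.6 beside TLCD2. How far the division of fragments between transcripts of a locus shaped these values was not tested.

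**Figure D3:**
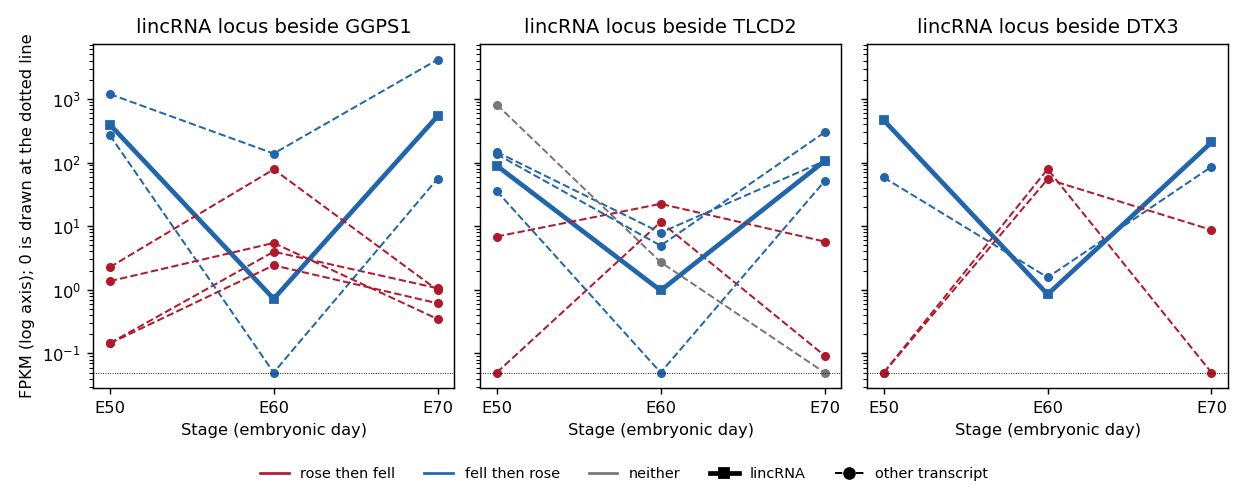
FPKM (log axis, 0 drawn at the dotted line) of all 18 transcripts at the 3 lincRNA loci by stage, coloured by course, with the listed lincRNA as a thick line with squares and other transcripts dashed with circles. Each locus holds transcripts that peak at E60 beside transcripts that are lowest at E60.

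Loci that hold both courses were common where many transcripts shared an interval. Of the 297 loci with 7 transcripts, as beside GGPS1 and TLCD2, 206 (69.4%) held a transcript that rose and then fell together with one that fell and then rose. Of the 1793 loci with 4 transcripts, as beside DTX3, 675 (37.6%) did so. The 3 lincRNA loci were chosen for a transcript that fell and then rose, and of loci that held such a transcript, 99.0% of those with 7 transcripts and 94.1% of those with 4 also held one that rose and then fell. With 4-fold in place of 2-fold, chosen after seeing the data, the transcripts that rose and then fell went from 4 to 1 at the locus beside GGPS1, from 2 to 1 beside TLCD2 and stayed at 2 beside DTX3, so both courses were still present.

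With all transcripts of a locus summed, the lincRNA loci were lowest at E60, but less deeply. These sums include the lincRNAs chosen for that low value. Without them, the sums were also lowest at E60 beside GGPS1 (1465, 228 and 4202 FPKM) and TLCD2 (1137, 49.6 and 461). Beside DTX3 the sum without the lincRNA was highest at E60 (58.3, 135 and 94.7). A fall and then a rise of 2-fold or more was seen in the sums of 12.7% of all loci. The locus beside GGPS1 had a summed FPKM of 1860, 229 and 4739 over the stages, which is a log2 change of -3.02 and then 4.37. That beside TLCD2 had 1227, 50.5 and 566, with changes of -4.57 and 3.46. That beside DTX3 had 521, 136 and 302, with changes of -1.93 and 1.15. The fall of the lincRNA beside DTX3 was thus -7.97 for the transcript and -1.93 for its locus. The exchange of places at E60 was also lost in the sums. The lincRNA locus had 7.02 times the summed FPKM of the GGPS1 locus at E60, 3.68 times that of the TLCD2 locus and 2.18 times that of the DTX3 locus. At E50 these ratios were 679, 2904 and 206, and at E70 they were 4598, 3358 and 622.

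The nearest loci beyond each pair on the scaffold had no common course. On scaffold 37, the locus on the far side of GGPS1 (1936117 to 2066430) had a summed FPKM of 52.6, 41.6 and 64.2 over E50, E60 and E70 and did not change by 2-fold. The locus beyond the lincRNA (2255336 to 2275872) had 4.12, 157 and 1.22 and peaked at E60 like GGPS1. On scaffold 211, the locus on the far side of TLCD2 (6236878 to 6248611) had 24.2, 6.26 and 54.7 and was lowest at E60, opposite to TLCD2. The locus beyond the lincRNA (6170965 to 6174067) had 0.531, 3.53 and 0.782. On scaffold 471, the locus on the far side of DTX3 (998324 to 1011265) had 3.14, 36.7 and 5.49, the same course as DTX3, and that beyond the lincRNA (1029149 to 1042893) had 37.9, 37.0 and 70.7. A locus highest at E60 was common on these scaffolds: the summed FPKM was highest at E60 for 19 of 29 loci on scaffold 37 (65.5%), 72 of 110 on scaffold 211 (65.5%) and 24 of 50 on scaffold 471 (48.0%), against 57.1% of all 18696 loci. A rise and then a fall of 2-fold or more, as at the 3 gene loci, was less common. It was seen in 55.2%, 50.9% and 32.0% of the loci on scaffolds 37, 211 and 471, against 43.7% of all loci.

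In the RefSeq annotation of the Sscrofa11.1 assembly, which is not the build of the table, all 3 genes were found by symbol and served only to name neighbouring genes. GGPS1 lies there between TBCE and ARID4B, TLCD2 between PRPF8 and WDR81, and DTX3 between PIP4K2C and ARHGEF25, counting protein-coding genes. When genes of every class were counted, pseudogenes and noncoding genes included, 0 of the 3 nearest on either side of a member were of the lncRNA class. In the table, each lincRNA locus was the next assembled locus to its gene on one side. These loci spanned 158801 bp beside GGPS1, 33938 bp beside TLCD2 and 6915 bp beside DTX3. Which of the WZSP loci hold these neighbours was not determined. A lincRNA locus may therefore be that of a neighbouring protein-coding gene, which was not tested.

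The other 9 pairs of the study's list were chosen in the same way. Their gene transcripts had between 9.48 and 205 FPKM at E60, and their log2 changes from E50 to E60 ran from 3.11 to 4.67. TLCD2, at 2.81, was below that range and had the lowest E60 level of all 12 gene transcripts, while GGPS1 and DTX3 lay within it. The lincRNAs of the other pairs changed by -9.67 to -3.51 from E50 to E60, with a median of -4.67, so the lincRNAs beside GGPS1 and DTX3 were among the larger falls. Transcripts of both courses were present at all 12 lincRNA loci, each of which was picked for a transcript that fell and then rose. Of all loci with 3 to 9 transcripts that held such a transcript, between 85.6% and 100% held both courses, by number of transcripts. For 4 of the other 9 pairs (RPN1, AP2M1, COG4 and SAMD4B, named after their values were seen) the summed FPKM of the gene locus fell to E60 and rose to E70, against the course of the listed gene transcript. Of all 18696 loci, 12.7% fell and then rose in summed FPKM and 43.7% rose and then fell. At the loci of GGPS1, TLCD2 and DTX3 the sum rose and then fell, but the listed transcripts held 100%, 65.5% and 90.5% of it at E60. Their sums thus largely repeat the values by which they were chosen, and the difference from the other pairs was not tested.

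Transcripts of other loci were ranked by their likeness to each gene transcript, measured as the Euclidean distance on log2(FPKM + 1) over the 3 stages. Nearest to GGPS1 were TCONS_00605067 (3.04, 33.9 and 1.11 FPKM over the stages, distance 0.14), TCONS_00275602 (distance 0.16) and TCONS_00227012 (distance 0.18). Nearest to TLCD2 were TCONS_00095937 (0.452, 9.37 and 0.159 FPKM, distance 0.06), TCONS_00845662 (distance 0.07) and TCONS_01127546 (distance 0.08). Nearest to DTX3 were TCONS_00046150 (1.54, 57.2 and 0.512 FPKM, distance 0.06), TCONS_00529901 (distance 0.13) and TCONS_00211706 (distance 0.18). Within a distance of 0.5 there were 637 transcripts for TLCD2, 34 for GGPS1 and 46 for DTX3, so the course of TLCD2 was shared by many more transcripts of the table. With 0.1 in place of 1 added to the FPKM, these counts were 45, 9 and 16.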

How the data were processed

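RNA pooled by stage was sequenced. The deposited file is the output of Cuffdiff, with FPKM values that the authors computed for 45614 transcripts at 18696 loci of the WZSP assembly. The submitters' processing notes name TopHat, Cufflinks 1.0.3 and Cuffdiff, whereas the study's methods give a later version of Cufflinks, so the version used is uncertain. Quantile normalization is named in the methods, but quantiles of the deposited values are not equal (upper quartile of FPKM 1.23, 12.5 and 0.957 from E50 to E70), so they were used as deposited. The summed FPKM was 44747113, 3117182 and 88974346, in the same order, of which the 10 highest transcripts held 57.5%, 35.3% and 72.2%. The depth in reads is not in the table. The authors' columns of log2 fold change, test statistic, p-value, q-value, test status and significance hold their comparisons between stages and were not used. There were 0 unused columns of per-sample values.

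Where a transcript was listed at 0 in one comparison and above 0 in another for the same stage, the value above 0 was taken, which concerned 0 of the members' values. Locus starts were converted to count from 1. No test was run, because each stage has 1 value, and a change means 2-fold or more on log2(FPKM + 1). The members, lists and alternatives were chosen with earlier results of these data known. Places among transcripts above 0 and shares among loci with a transcript that fell and then rose were added after seeing the data. Genes and transcripts named are the members, the transcripts and nearest loci of their loci, the 3 transcripts nearest in course to each gene, and a summary of the other 9 pairs. Lists of prenylation, TLC domain, Notch and cell type marker genes were planned but not analysed here, since the table does not pair transcripts with symbols. Alternatives were a pseudocount of 0.1, quantile normalization, scaling to the same median or to the same sum without the 100 highest transcripts, locus sums, a filter of FPKM 1 and a 4-fold threshold. Calculations were checked on simulated data. Python 3.11.15, numpy 2.4.6, pandas 2.3.3 and matplotlib 3.10.9 were used.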

Additional observations from a re-analysis of the deposited data

How the results depend on the processing

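Of 30 values of the 6 changes from E50 to E60 under 5 alternatives, 29 kept their direction and their side of 2-fold, and likewise 29 of 30 from E60 to E70. The exceptions were those of TLCD2 after quantile normalization (0.27 and -0.35). In each count the locus sum of GGPS1 could not differ, since its only other transcript was listed at 0 at all 3 stages. The members were chosen for their changes into and out of E60, so both counts are a description only. From E50 to E70, 18 of 30 values kept their direction and their side of 2-fold. With a pseudocount of 0.1, the change of GGPS1 was -1.33 and that of DTX3 -1.56. With locus sums, that of DTX3 was -1.25, and those of the lincRNAs beside GGPS1, TLCD2 and DTX3 were 1.35, -1.11 and -0.78. The lincRNAs beside GGPS1 and TLCD2 had -0.66 and -0.52 after quantile normalization and -0.31 and -0.51 with equal sums without the 100 highest transcripts, where GGPS1 had -1.08. The lincRNA beside DTX3 had -0.80 with median scaling. After quantile normalization, 30.8% of transcripts rose and 27.0% fell from E50 to E60, 25.2% rose and 30.3% fell from E60 to E70, 15.6% rose and 19.1% fell from E50 to E70, 25.7% rose and then fell and 17.6% fell and then rose. With a 4-fold threshold, 7.11% rose and 4.36% fell from E50 to E70, and 17.7% rose and 21.5% fell with a pseudocount of 0.1. The pseudocount of 0.1 left 9, 45 and 16 transcripts within a distance of 0.5 of GGPS1, TLCD2 and DTX3, and of the 3 nearest, 3, 1 and 2 remained. Without transcripts under an FPKM of 1 at every stage, DTX3 held 74.6% of its locus at E50. The cause of these shifts was not tested. Leaving out a sample was impossible with 1 value per stage. No paired analysis was possible because no result comes from a test.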

Other observations

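Farther along the scaffolds, 18 loci were looked at, the 3 on each side of each pair, of which the more distant ones were added after the nearest had been seen. Of these, 10 rose and then fell in summed FPKM, 4 fell and then rose and 4 did neither. Over all 18696 loci, 43.7% rose and then fell and 12.7% fell and then rose. The highest of the 18, named after its values were seen, lies 20165 bp from the DTX3 locus (scaffold 471, 904895 to 993036), holds 17 transcripts and had a summed FPKM of 3410, 415 and 11172 at the successive stages.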
